A study of Drosophila melanogaster with 12 samples.

Results

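The genes described here encode the nuclear subunits of mitochondrial complex I in Drosophila melanogaster. They were taken by name, as every gene whose FlyBase symbol starts with ND-, after matching the FlyBase identifiers of the count files to symbols. The rule found 40 genes among the 17023 identifiers, and all 40 are in the files. Of these, 34 are subunits and 6 are paralogs whose symbols end in L. A filter on low counts kept 32 of the 40 for testing, within 9024 genes tested in all. Lengths were not used to choose the genes. They were used afterwards to set short subunits against long ones.

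Complex I takes electrons from NADH, hands them to ubiquinone and pumps protons across the inner mitochondrial membrane. Its matrix arm holds an N module, where NADH is oxidised, and a Q module, where ubiquinone is reduced, and its membrane arm moves the protons. A conserved core does the chemistry, with its matrix-arm proteins encoded in the nucleus and its membrane-arm proteins in the mitochondrial genome, and many small accessory proteins surround that core.

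The RNA came from S2 cells, a line derived from fly embryos that resembles hemocytes, the insect's blood cells. Cells received 1 µg of double-stranded RNA (dsRNA) against porthos (CG9253), which encodes a DEAD-box RNA helicase, or against GFP, a sequence that serves as the control. Lysates were made in cycloheximide, which holds ribosomes on mRNA, and polysome fractions were taken from a sucrose gradient, with an input set aside from the lysate before the gradient. Whether libraries of the same number come from 1 lysate is not given in the sources used here. The 12 libraries form 4 groups of 3, which are polysomes with porthos dsRNA, polysomes with GFP dsRNA, input with porthos dsRNA and input with GFP dsRNA. All groups share the cell line, the dsRNA dose, the cycloheximide (100 µg per ml for 3 min) and the selection of poly(A) RNA. They also share a transfection time of 48 h and growth to day 3 after passage. Polysome RNA was extracted with phenol and chloroform and input RNA with TRIzol, so fraction and extraction cannot be told apart, while both dsRNA treatments were handled alike within a fraction. Replicates carry numbers in the labels, with no statement that each was its own culture. The p-values can therefore reflect spread that is only technical.

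Libraries held 7559406 to 11918941 counts. A floor of 3 counts corresponds to 0.252 to 0.397 CPM, counts brought to one library size, and covers counting error only. The porthos mRNA averaged 116 ± 24.0 CPM on polysomes with porthos dsRNA and 320.0 ± 6.08 CPM with GFP dsRNA (SD, n = 3 each), a log2 change of -1.46 ± 0.10 (SE). In input it averaged 103 ± 6.43 CPM with porthos dsRNA and 223 ± 2.99 CPM with GFP dsRNA, a log2 change of -1.11 ± 0.10, so depletion was partial. Of 10 hemocyte markers, 8 were above 1 CPM in all libraries, and their summed level was 1469 to 1672 CPM in polysome porthos, 1325 to 1485 in polysome GFP, 2089 to 2387 in input porthos and 2024 to 2261 in input GFP libraries. Markers of muscle and of fat body stayed at summed levels of 4.32 to 15.4 CPM. The 4 neuron markers, 2 of them above 1 CPM in all libraries, summed to 89.95 to 116 CPM in polysome porthos and 79.7 to 96.4 CPM in polysome GFP libraries, and to 137 to 152 CPM in input porthos and 140.4 to 164 CPM in input GFP libraries. Germline markers, 3 of the 5 listed being in the files, summed to 120.1 to 169 CPM in polysome porthos and 86.9 to 99.8 CPM in polysome GFP libraries, and to 241 to 248 CPM in input porthos and 212 to 218 CPM in input GFP libraries. Their part in the results below was not tested. Replicate 3 of the polysome porthos group had a count for 10377 genes, against 11485 to 11864 in the other 11 libraries. The calls on polysomes that were lost without it are named with the other effects of single libraries.

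The 32 tested subunits differed in level by well over an order of magnitude. Levels are compared between genes as CPM per kilobase of summed exon length, and in input GFP libraries ND-MLRQ led with 286 ± 11.1 (SD, n = 3). The human counterpart of ND-MLRQ is assigned to complex IV, and in flies it is counted here only by its symbol. ND-ACP, the mitochondrial acyl carrier protein, was second with 188 ± 10.5, and next came ND-49, a core subunit of the Q module that forms part of the quinone-binding site, with 107 ± 3.47. At the other end stood the membrane-arm accessory subunits ND-ASHI with 20.4 ± 2.11 and ND-AGGG with 8.71 ± 2.07. On polysomes of GFP cells ND-MLRQ and ND-ACP were again at the top, with 648 ± 146 and 370 ± 69.8 CPM per kilobase. ND-49 had 104 ± 19.4 CPM per kilobase on polysomes with porthos dsRNA and 60.1 ± 6.43 with GFP dsRNA, where only 4 of the 32 subunits were lower.

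The 8 members that did not pass the filter were all 6 paralogs and 2 subunits. Summed over 12 libraries, ND-20L and ND-B14.5AL had 0 counts, ND-49L had 4, ND-24L had 18, ND-51L2 had 46 and ND-51L1 had 86. No paralog had more than 20 counts in a library, and reads that a paralog shares with its parent gene could have been lost or split by the counting. ND-B8, an accessory subunit of the N module, had 28 counts in all and at most 6 in a library. ND-MNLL, a small membrane-arm subunit, had 0 counts in every library. In the annotation its 720 exon bases all lie within exons of another gene on the same strand, CG45089, which also had 0 counts, so this 0 cannot be read as absence of its mRNA. The 7 mitochondrially encoded subunits (mt:ND1, mt:ND2, mt:ND3, mt:ND4, mt:ND4L, mt:ND5 and mt:ND6) were likewise listed at 0 in every library, as were all 37 mitochondrial genes in the files, and the membrane-arm core cannot be read from these data.

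In input, no subunit mRNA passed the test for a change with porthos dsRNA. Among the 32, 0 were called higher and 0 lower at an adjusted p under 0.05 (edgeR's quasi-likelihood test, Benjamini-Hochberg over all genes tested). Over all 9024 genes, 0.997% were called higher and 0.72% lower. At an unadjusted p under 0.05 the members counted 2 higher and 0 lower, and DESeq2 and limma voom called 0 each. The median log2 change of the 32 was 0.08, with 23 above 0, beside a median of 0.00 over all genes. Since these are bulk libraries, fewer cells with an mRNA and less of that mRNA per cell cannot be told apart here or in the comparisons that follow.

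The core subunits showed how narrow the input differences were. ND-51, which binds NADH and flavin in the N module, had 106, 98.5 and 99.4 CPM with porthos dsRNA and 87.0, 98.1 and 82.7 CPM with GFP dsRNA. The porthos libraries lay just above the GFP libraries, and the log2 change of 0.18 ± 0.08 (SE) had an adjusted p of 0.27. ND-49 had 190.0, 194 and 191 CPM in input with porthos dsRNA, against 164, 174 and 173 CPM with GFP dsRNA. All 3 porthos libraries were again above all 3 GFP libraries, with a log2 change of 0.17 ± 0.10 and an adjusted p of 0.47. ND-75, the largest subunit and a carrier of iron-sulfur clusters in the N module, had 80.3, 95.3 and 106 CPM with porthos dsRNA and 109, 104 and 83.2 CPM with GFP dsRNA, which overlapped throughout.

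By size, the fitted input differences were led by the accessory subunits ND-AGGG and ND-B14.5A, ahead of the core subunits ND-51 and ND-49. ND-AGGG had 7.64, 8.71 and 10.7 CPM with porthos dsRNA and 5.72, 5.48 and 8.27 CPM with GFP dsRNA, a log2 change of 0.47 ± 0.22 with overlapping groups and an adjusted p of 0.34. ND-B14.5A, an N-module accessory subunit, stood at 0.24 ± 0.13 with an adjusted p of 0.41. In the other direction ND-18 was at -0.16 ± 0.14, ND-ACP at -0.14 ± 0.10 and ND-B14.5B at -0.13 ± 0.12, with adjusted p-values of 0.69, 0.60 and 0.70.

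On polysomes the subunits parted. With porthos dsRNA, 1 of the 32 subunit mRNAs rose, ND-49, and 7 fell, all of them accessory subunits with coding sequences of 339 to 549 nt. Of all genes tested, 11.2% were called higher and 7.14% lower. The median log2 change of the 32 members was -0.23 and 26 of them were below 0, beside a median of 0.00 over all genes. Without overlap between groups, 2 members were higher and 5 lower, against 16.2% and 13.4% of all genes.

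ND-49 lies on chromosome 4 (dm6, 568296 to 571554, minus strand), with 1593 nt of exons and no annotated exon overlap with another gene. On polysomes it had 181, 130.0 and 186 CPM with porthos dsRNA and 84.7, 97.5 and 105 CPM with GFP dsRNA. Every porthos library was above every GFP library, with replicate 2 the closest to the GFP group. The log2 change was 0.79 ± 0.10, or 1.73-fold (adjusted p = 1.37e-05). Chromosome 4 genes as a whole had a polysome median of 0.10 over 85 genes tested. Of these, 10 (11.8%) were called higher and 2 (2.35%) lower, beside 11.2% and 7.14% of all genes.

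The other 6 nuclear core subunits did not pass the test on polysomes. ND-75 had 88.3, 79.5 and 91.3 CPM with porthos dsRNA and 75.1, 71.0 and 67.9 CPM with GFP dsRNA. Its groups did not overlap, and its log2 change of 0.27 ± 0.10 had an adjusted p of 0.063. ND-51 had 108, 108 and 99.2 CPM with porthos dsRNA and 102, 94.0 and 93.3 CPM with GFP dsRNA, a log2 change of 0.13 ± 0.08. The remaining ones ranged from -0.11 to 0.09. These were ND-24, an iron-sulfur protein next to the flavin, at 0.09 ± 0.09, ND-20, which holds the last iron-sulfur cluster before ubiquinone, at -0.012 ± 0.09, ND-30 at -0.05 ± 0.10, and ND-23, which carries a pair of iron-sulfur clusters, at -0.11 ± 0.10.

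**Figure D1:**
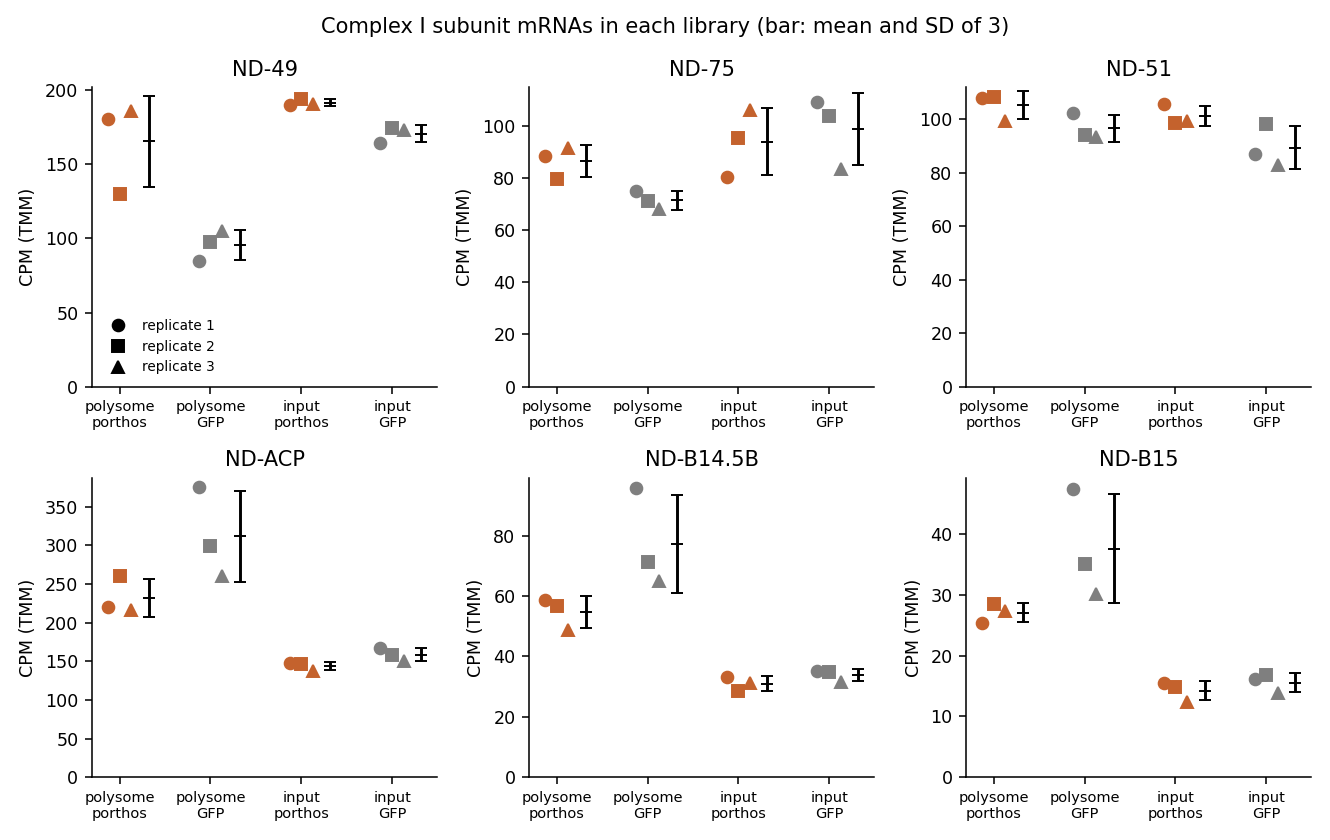
TMM-scaled CPM of 6 subunit mRNAs in each of the 12 libraries, by group on the horizontal axis, with 1 symbol per replicate and the mean and SD of 3 beside it. ND-49 on polysomes lies at 130.0 to 186 CPM with porthos dsRNA and 84.7 to 105 CPM with GFP dsRNA, while ND-ACP, ND-B14.5B and ND-B15 average lower with porthos dsRNA than with GFP dsRNA on polysomes.

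Among the 7 that fell, 5 are in the set of the membrane arm and others, which holds every member not placed in the N or Q module. ND-B14.5B (2L, 3144953 to 3145848, minus strand) had 58.6, 56.8 and 48.6 CPM on polysomes with porthos dsRNA and 95.7, 71.1 and 65.0 CPM with GFP dsRNA. Its groups did not overlap, and it changed by -0.50 ± 0.11 on the log2 scale (adjusted p = 0.0040). ND-B15, a membrane-arm accessory subunit, had 25.4, 28.5 and 27.3 CPM with porthos dsRNA and 47.5, 35.1 and 30.1 CPM with GFP dsRNA, a log2 change of -0.47 ± 0.14 (adjusted p = 0.020). GFP replicate 1 was the highest library for both genes.

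ND-ACP (3L, 1329949 to 1331631, plus strand) had 220, 260.0 and 216 CPM on polysomes with porthos dsRNA and 375, 299 and 260 CPM with GFP dsRNA. The highest porthos library and the lowest GFP library met at the same level, and the log2 change was -0.43 ± 0.10 (adjusted p = 0.0046). ND-B16.6, the fly counterpart of the mammalian protein GRIM-19, changed by -0.37 ± 0.11 (adjusted p = 0.025). ND-B18, which in mammals faces the intermembrane space, changed by -0.33 ± 0.10 (adjusted p = 0.028).

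The remaining 2 that fell are accessory to the N module. ND-18 had 35.6, 41.6 and 30.2 CPM with porthos dsRNA and 56.4, 44.5 and 41.5 CPM with GFP dsRNA, with groups that met at their edges. Its log2 change was -0.41 ± 0.13 (adjusted p = 0.037). ND-B17.2 had 81.3, 81.6 and 75.4 CPM with porthos dsRNA and 116, 91.0 and 88.6 CPM with GFP dsRNA, without overlap. Its log2 change was -0.31 ± 0.10 (adjusted p = 0.030).

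By module, the polysome medians were -0.16 for 7 N-module subunits, -0.05 for 7 Q-module subunits and -0.26 for 18 subunits of the membrane arm and others. By class, the 7 core subunits had a median of 0.09 and the 25 accessory subunits a median of -0.26, with 23 of the 25 below 0. The exceptions were ND-42, a membrane-arm subunit related to nucleoside kinases, at 0.04 ± 0.07, and ND-AGGG. ND-AGGG had 24.2, 17.9 and 30.1 CPM with porthos dsRNA and 21.9, 15.5 and 15.8 CPM with GFP dsRNA, a log2 change of 0.44 ± 0.18 (adjusted p = 0.097) that stood beside its input difference of 0.47. The core subunits have coding sequences of 651 nt or more. All accessory ones but ND-39 and ND-42 have 558 nt or less, so class and length cannot be told apart here.

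Short and long subunits were then compared, split at the median exon length of the 32, 857.5 nt. On polysomes the 16 short subunits had a median log2 change of -0.28, with 15 of 16 below 0, 0 called higher and 5 called lower. The 1001 tested genes below the same length had a median of -0.19, with 771 below 0, 1.2% called higher and 15.9% called lower. The 16 long subunits had a median of -0.11, with 11 below 0, 1 called higher and 2 called lower. The 7817 longer genes had a median of 0.02, with 3704 below 0, 12.4% called higher and 6.05% lower. Among the 18 subunits without annotated exon overlap, a subset chosen after seeing the data, 1 was called higher and 3 lower on polysomes, with a median of -0.12. The 9 long ones of these had a median of -0.012 with 1 called higher and 0 lower, and the 9 short ones a median of -0.26 with 0 called higher and 3 lower. In input the medians were 0.07 for short and 0.08 for long subunits, and 0.04 and 0.00 for all shorter and all longer genes.

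Split at their median coding length, the subunits gave the same polysome counts as by exon length, 15 of 16 short and 11 of 16 long ones below 0. The 5 subunits with coding sequences over 1000 nt (ND-75, ND-51, ND-49, ND-39 and ND-42) had a polysome median of 0.13, with 4 of 5 above 0, and the 27 shorter ones a median of -0.26, with 25 of 27 below 0. All tested genes with coding lengths over and under 1000 nt had medians of 0.06 and -0.12. Of the longer genes 3325 of 5705 were above 0, and of the shorter ones 1846 of 2714 were below 0. Across the 32 subunits Spearman's rho between the polysome change and length was 0.47 for exon length and 0.50 for coding length. For coding length it was 0.45 over the 31 without ND-49. Across the 27 shorter subunits it was 0.24, and across 8419 genes with a coding length 0.26. Genes share libraries and are not replicates, so these values are descriptions.

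**Figure D2:**
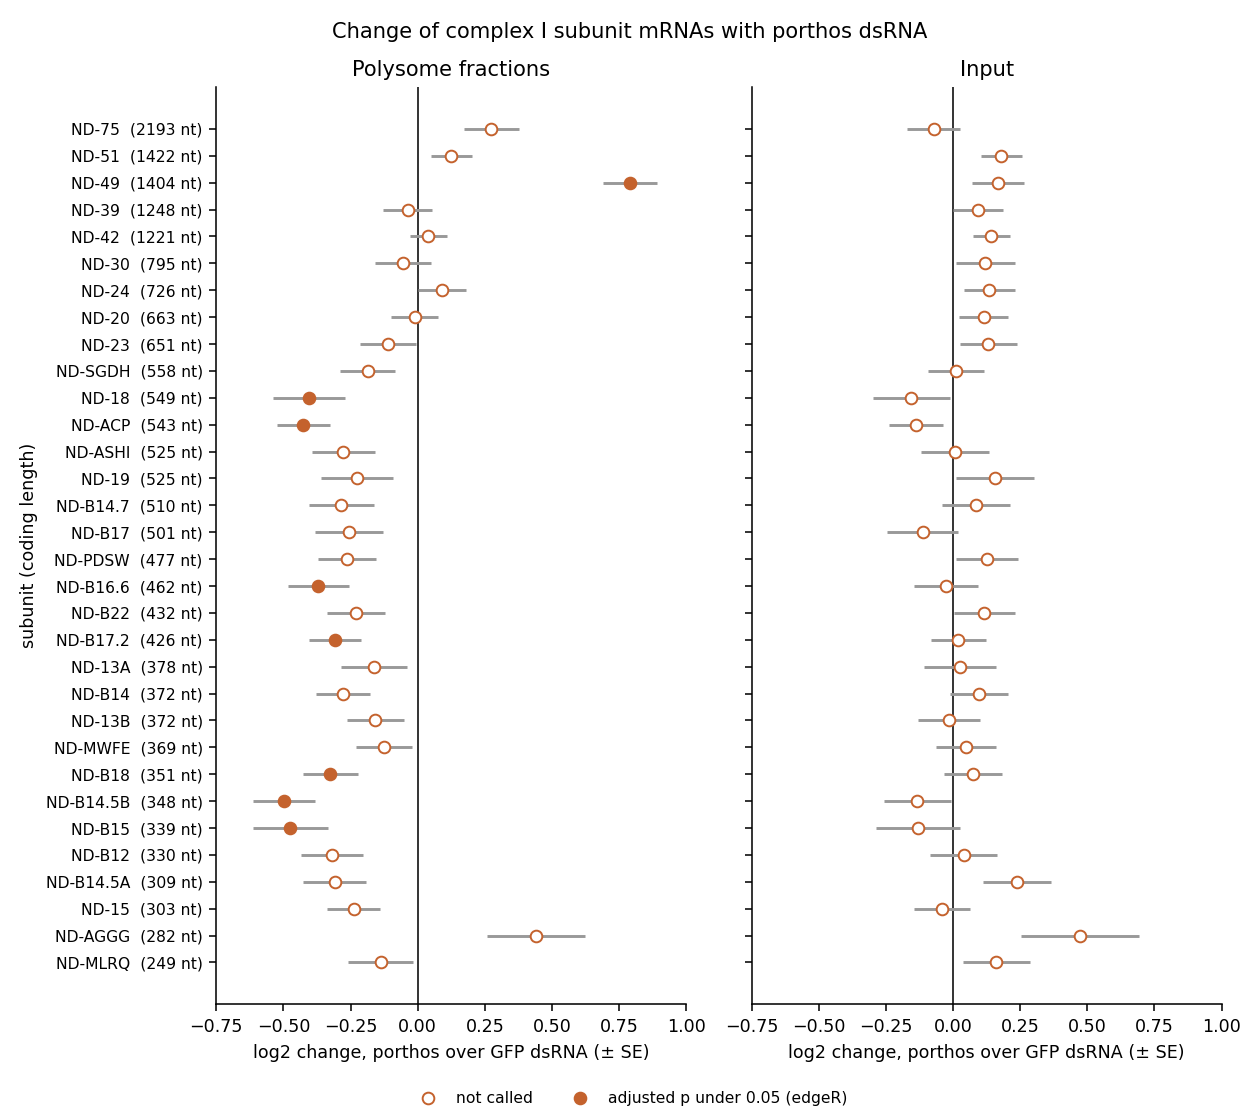
Log2 change with porthos over GFP dsRNA (horizontal axis, ± SE) of the 32 tested subunit mRNAs, ordered by coding length from the longest at the top, on polysomes (left) and in input (right). Filled points passed an adjusted p under 0.05. On polysomes ND-49 stands at 0.79 and 7 subunits of 339 to 549 nt are filled below 0, while no point is filled in input.

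The longest subunits were also set side by side, with ND-39 and ND-42 added after their values were seen. ND-49, ND-51, ND-39 and ND-42 have near-equal exon lengths of 1593, 1590, 1616 and 1618 nt, and coding lengths of 1404, 1422, 1248 and 1221 nt. Their polysome changes were 0.79, 0.13, -0.04 and 0.04 on the log2 scale. The part of length in these differences was not tested. ND-39, an accessory subunit of the Q module, had 143, 160 and 114 CPM with porthos dsRNA and 152, 147 and 130 CPM with GFP dsRNA on polysomes. ND-42 had 137, 136 and 134 CPM with porthos dsRNA and 138, 133 and 125 CPM with GFP dsRNA. Both pairs of groups overlapped.

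ND-49 also took a larger share of the subunit mRNA on polysomes. It made up 6.30, 4.21 and 6.70% of the summed CPM of the 32 subunits on polysomes with porthos dsRNA, against 2.26, 3.15 and 3.72% with GFP dsRNA, without overlap. In input its share was 9.86, 9.70 and 9.62% with porthos dsRNA and 8.47, 9.15 and 9.65% with GFP dsRNA, where the groups met. The summed level of the 32 was 2911 ± 160 CPM with porthos dsRNA and 3227 ± 478 CPM with GFP dsRNA on polysomes, and 1970 ± 38.6 and 1880 ± 75.6 CPM in input (SD, n = 3).

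Ratios between subunits in the same library remove any scaling of that library. ND-49 over ND-51 was 1.58 ± 0.35 on polysomes with porthos dsRNA and 0.998 ± 0.15 with GFP dsRNA (SD, n = 3). In input it was 1.90 ± 0.09 with porthos dsRNA and 1.92 ± 0.16 with GFP dsRNA. ND-49 over ND-75 was 1.91 ± 0.23 on polysomes with porthos dsRNA and 1.35 ± 0.21 with GFP dsRNA, and 2.07 ± 0.29 and 1.76 ± 0.30 in input. Both polysome ratios had a two-sided exact permutation p of 0.10, the smallest that 3 against 3 libraries allow, and 0.20 after Benjamini-Hochberg adjustment over these 4 comparisons. The input ratios had an exact permutation p of 1.00 for ND-49 over ND-51 and 0.30 for ND-49 over ND-75.

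Single polysome libraries stood apart for many subunits at once. GFP replicate 1 held the highest value of its group for 31 of the 32 members, against 37.0% of all genes, and GFP replicate 3 the lowest for 29. Among the porthos libraries, replicate 2 was the highest for 24 members and replicate 3 the lowest for 21. Relative to the mean of the 6 polysome libraries, short subunits had a median log2 deviation of 0.41 in GFP replicate 1, and other short genes one of 0.26, while ND-49 was at -0.56. In porthos replicates 1, 2 and 3 short subunits were at -0.15, 0.03 and -0.27, and ND-49 at 0.53, 0.06 and 0.57.

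The number of subunits called lower followed these libraries. It was 7 with all libraries, 2 without GFP replicate 1 and 16 without GFP replicate 3. Without porthos replicates 1, 2 and 3 in turn it was 2, 17 and 4. The share of all genes called lower moved the same way, at 7.14% with all libraries, 3.34% without GFP replicate 1 and 9.57% without GFP replicate 3, and 4.43%, 12.2% and 4.53% without porthos replicates 1, 2 and 3 in turn. Without porthos replicate 3, the library with fewer genes counted, ND-18, ND-B16.6 and ND-B17.2 were no longer called, with adjusted p-values of 0.13, 0.098 and 0.073 (edgeR) and log2 changes of -0.32, -0.30 and -0.29. Without GFP replicate 1 or without porthos replicate 1, these 3 and also ND-B15 and ND-B18 were no longer called. ND-49, ND-ACP and ND-B14.5B were called whichever of the 12 libraries was left out. Without porthos replicate 2, 3 subunits were called higher, ND-49, ND-75 and ND-AGGG, beside 13.6% of all genes. With library size as the only scaling, 8.67% of all genes were called higher and 10.6% lower on polysomes, and 12 subunits were called lower.

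**Figure D3:**
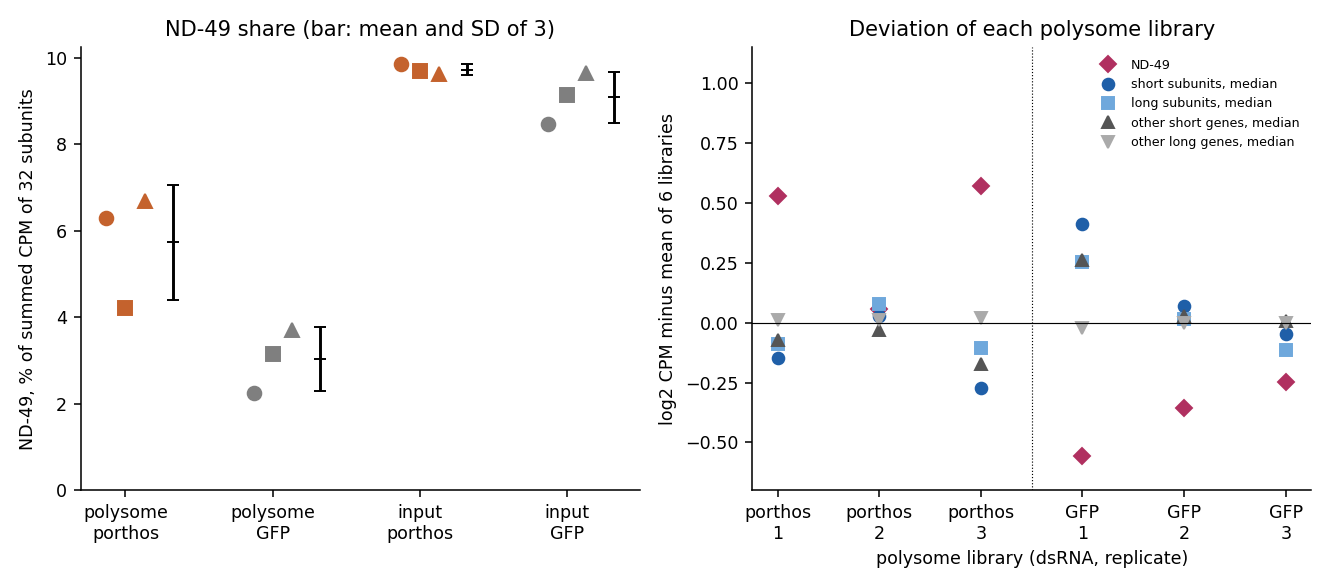
Left, ND-49 as a percentage of the summed CPM of the 32 subunits in each library, with 1 symbol per replicate and the mean and SD of 3 beside it. Right, log2 CPM minus the mean of the 6 polysome libraries, for ND-49 and as medians for short and long subunits and for other genes below and above the same exon length. ND-49 is at -0.56 in GFP replicate 1, where short subunits are at 0.41 and other short genes at 0.26.

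Translational efficiency, the change on polysomes minus the change in input, was below 0 for nearly every subunit, and none passed edgeR's test on the filtered genes of all 12 libraries with no block. Of the 32, 0 were called higher and 0 lower by edgeR, beside 0.0776% and 0.0222% of all genes (0.0665% and 0.111% with library size as the only scaling). At an unadjusted p under 0.05 the members counted 2 higher and 10 lower. DESeq2 called 1 higher, ND-49, and 0 lower, beside 5.03% and 0.731% of the 4378 genes to which it gave an adjusted p. It gave none to at least ND-B15, ND-18 and ND-AGGG, so these were not assessed there. Limma voom called 0, beside 0.0332% higher and 0 genes lower. The median of the 32 was -0.25 with 30 below 0, beside 0.00 over all genes. All 16 short subunits were below 0, with a median of -0.34. Of the 1001 tested genes below the split 789 were below 0, with a median of -0.24. The 16 long subunits had a median of -0.16 beside 0.02 for all genes above the split.

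ND-49 and ND-75 were the 2 subunits above 0. ND-49 had a difference of 0.62 ± 0.14 with an adjusted p of 0.052, just outside the threshold. It was 0.0074 with DESeq2 and 0.00014 without the filter on low counts, and ranged from 0.00029 to 0.22 when single libraries were left out, where 2 of 12 fits called it. Those were the fits without GFP replicate 3 and without porthos replicate 2 of the polysome group, which also called 1 and 5 subunits lower. Calls over all genes also grew there, to 0.326% higher and 0.532% lower without GFP replicate 3 and 5.54% higher and 1.97% lower without porthos replicate 2, and without the filter they were 1.05% and 0.665%. With the treatment and replicate number as a block, which treats same-numbered polysome and input libraries as 1 lysate, ND-49 was called higher at 0.61 ± 0.12 (adjusted p = 0.010). ND-B14.5A and ND-B18 were then called lower (adjusted p = 0.042 and 0.046, edgeR), beside 1.94% of all genes called higher and 0.576% lower. The efficiency of ND-49 was not called with limma voom, RLE size factors, library size as the only scaling, a stricter filter or the length trend removed. ND-75 had a difference of 0.35 ± 0.14 (adjusted p = 0.24). At the low end were ND-B14.5A at -0.55 ± 0.17, ND-B18 at -0.40 ± 0.15 and the membrane-arm subunit ND-PDSW at -0.39 ± 0.16, with adjusted p-values of 0.13, 0.19 and 0.24.

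Polysome loading, the level on polysomes over that in input within 1 dsRNA treatment, separated the subunits by length in both treatments. In porthos cells 29 of the 32 subunits were called higher on polysomes and 0 lower, beside 23.7% and 24.1% of all genes, and the median was 0.70. In GFP cells 29 were called higher and 2 lower, beside 26.5% and 28.9% of all genes, and the median log2 loading was 1.03. The short subunits were all called higher, 16 of 16 in each treatment, with medians of 0.79 in porthos cells and 1.14 in GFP cells. All tested genes below the same length had medians of 0.59 and 0.76, and 56.9% and 64.1% of them were called higher. With library size as the only scaling, 29.9% of all genes were called higher and 19.1% lower in porthos cells, and 33.5% and 22.2% in GFP cells. Loading and the porthos comparisons use the same libraries and are not separate evidence.

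The highest loading was that of accessory subunits. In porthos cells ND-AGGG led with 1.41 ± 0.19, followed by ND-15 with 0.98 ± 0.10 and ND-B14, a member of the LYR family that binds the acyl carrier protein, with 0.93 ± 0.10. In GFP cells the top 3 were ND-AGGG with 1.45 ± 0.21, ND-B14.5A with 1.35 ± 0.12 and ND-B14 with 1.30 ± 0.10. ND-MLRQ, with the shortest coding sequence of the tested members at 249 nt, had a loading of 0.88 ± 0.12 in porthos cells and 1.18 ± 0.12 in GFP cells.

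The lowest loading was that of 3 core subunits. ND-49 was at -0.21 ± 0.10 in porthos cells (adjusted p = 0.080) and at -0.83 ± 0.10 in GFP cells (adjusted p = 1.74e-07). ND-75, with the longest coding sequence at 2193 nt, was at -0.12 ± 0.10 in porthos cells (adjusted p = 0.34) and at -0.47 ± 0.10 in GFP cells (adjusted p = 0.00034). ND-51 was at 0.06 ± 0.08 in porthos cells and 0.11 ± 0.08 in GFP cells. ND-49 was called lower in porthos cells when polysome porthos replicate 1 or 3 was left out, which left 1 subunit called lower in place of 0.

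**Figure D4:**
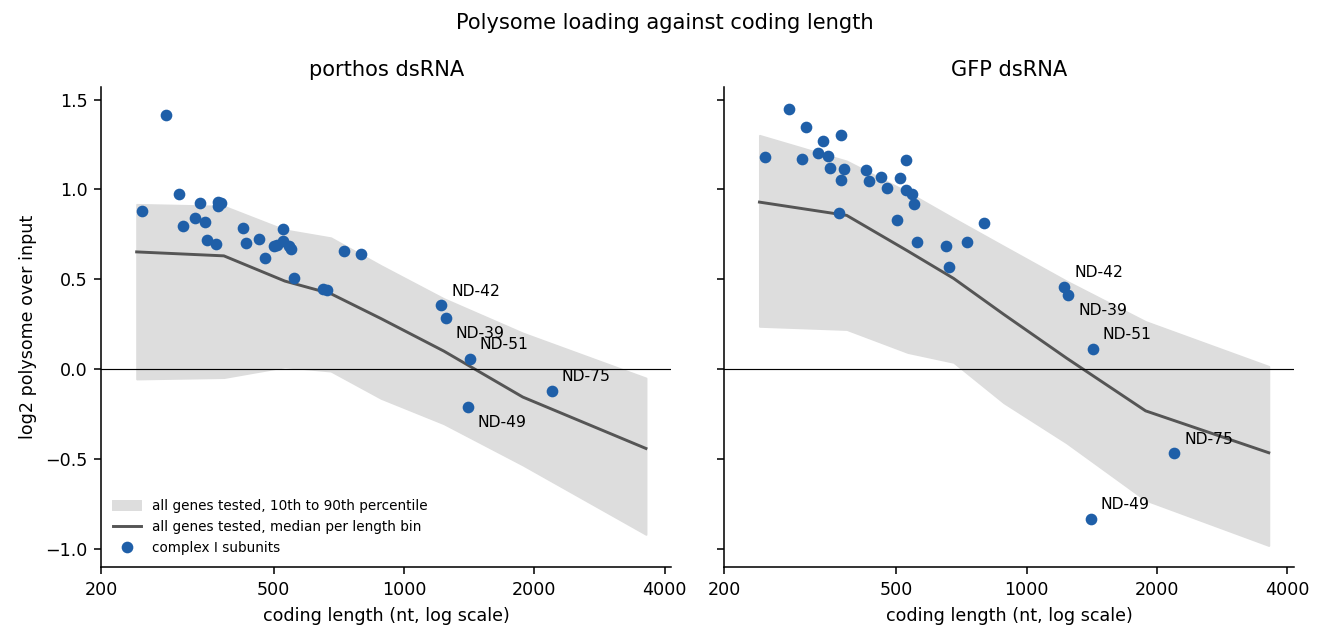
Log2 polysome over input (vertical axis) against coding length (horizontal axis, log scale) for the 32 tested subunits, in porthos cells (left) and GFP cells (right), over the median and the 10th to 90th percentile of all tested genes per length bin. ND-49 is at -0.21 in porthos cells and at -0.83 in GFP cells, where the 10th percentile of its length bin is -0.41.

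Most subunits were loaded more than the median gene of their size, and high loading was also seen in the other respiratory complexes, given below. Spearman's rho between coding length and loading was -0.90 in porthos cells and -0.91 in GFP cells over the 32 subunits, beside -0.72 and -0.73 over all genes with a coding length. Over the 27 subunits up to 1000 nt it was -0.84 and -0.85. Of the 32, 30 lay above the median of all genes in their bin of coding length in each treatment. In GFP cells the exceptions were ND-49 and ND-75. ND-49, at -0.83, also lay below the 10th percentile of its bin of 1000 to 1500 nt, -0.41. In porthos cells it was at -0.21 beside a bin median of 0.10 and a 10th percentile of -0.30. ND-51, ND-39 and ND-42 in the same bin were at 0.06, 0.28 and 0.36 in porthos cells and at 0.11, 0.41 and 0.46 in GFP cells.

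Complex I genes outside the symbol rule and the nuclear subunits of the other respiratory complexes were read from lists for comparison. Of the accessory subunit NP15.6 and the assembly factors CIA30, ECSIT and sicily, 0 of 4 passed on polysomes in either direction, with log2 changes of -0.28, -0.07, -0.0036 and -0.25. Complex IV had 1 of 9 called lower, COX7C at -0.31 ± 0.11, and all 9 below 0 with a median of -0.24. Complex III had 2 of 7 called lower, UQCR-Q at -0.34 ± 0.12 and UQCR-11 at -0.27 ± 0.09, with a median of -0.10. Of all genes tested, 11.2% were called higher and 7.14% lower on polysomes. Among those with coding lengths under 1000 nt the shares were 3.43% and 12.8%.

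Complexes II and V had calls in both directions on polysomes, as complex I did, and the part of length in this was not tested. In complex II, SdhA, the flavoprotein with a coding length of 1983 nt, rose by 0.33 ± 0.08 on polysomes (adjusted p = 0.0057) and SdhB, the iron-sulfur subunit of 891 nt, fell by 0.31 (adjusted p = 0.021). In complex V 3 of 14 rose and 4 fell. Of all genes with coding lengths over 1000 nt, 15.5% were called higher and 4.54% lower on polysomes. ATPsynbeta and blw, the beta and alpha subunits of the catalytic head with 1533 and 1656 nt, changed by 0.53 ± 0.08 and 0.35 ± 0.08, and ATPsynepsilonL, of 192 nt, changed by 1.00 ± 0.20. The 4 that fell were ATPsynG, ATPsynF, ATPsynE and ATPsynCF6, with coding lengths of 243 to 321 nt and log2 changes of -0.31 to -0.45. In GFP cells the loading of SdhA was -0.77 ± 0.08, of ATPsynbeta -0.34 ± 0.08 and of blw -0.20 ± 0.08. All were called lower, like that of ND-49 and ND-75, as were 42.2% of all genes with coding lengths over 1000 nt. The core subunits UQCR-C1 and UQCR-C2 of complex III, of 1410 and 1320 nt, had a loading of 0.0029 ± 0.07 and 0.02 ± 0.08 there. High loading was not particular to complex I. In GFP cells 9 of 9 complex IV subunits were called higher, with a median of 1.065. In complex V it was 12 of 14 with a median of 0.97, in complex III 5 of 7 with 0.76, and in complex II 3 of 4 with 0.68. Of all genes with coding lengths under 1000 nt, 62.3% were called higher there, with a median of 0.52.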

How the data were processed

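The deposited files hold whole-number counts of reads per FlyBase gene, 1 file for each of 12 libraries. Per the submitters' processing notes the authors used HISAT2 2.1.0 and featureCounts 1.4.6 and the build dm6. Which annotation release was counted, whether strand was used and how reads with several positions were treated is not given in the sources used here, so counts of paralogs and of 14 tested members with annotated exon overlap are uncertain, ND-B15, ND-18, ND-B16.6 and ND-B18 among them. Symbols, lengths and coordinates came from an Ensembl annotation of the same assembly, which matched 16647 of 17023 identifiers (the other 376 held 5.29% of counts). Exon length is the union of a gene's exons, known for 8818 tested genes, and coding length is its longest coding sequence.

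From the counts, CPM were scaled by TMM and genes filtered with filterByExpr (edgeR 4.0.16, R 4.3.3). All 12 libraries entered 1 quasi-likelihood fit with a term per group and no replicate block. Translational efficiency is the interaction term. P-values were adjusted by Benjamini-Hochberg over 9024 genes, with a threshold of 0.05, and SE is the log2 change over the root of F. The fit was tested on simulated data. The common coefficient of variation was 0.0792, and replicates differed beyond counting noise (lowest chi-square per degree of freedom 2.30). Alternatives were DESeq2 1.42.0, limma voom 3.58.1, other scalings and filters, own groups, blocks, removal of a length trend and leaving out each library. Named members are the core subunits, those called, the 3 largest changes per direction and contrast, the extremes of loading and length, and those not tested. ND-39 and ND-42, with near-equal exon length to ND-49, and the list members of other complexes were added after their values were seen. The members and lists were chosen with earlier results of these data known. Sequences were not used here.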

Additional observations from a re-analysis of the deposited data

How the results depend on the processing

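Counts of subunits called in input, and on polysomes over input in GFP cells, stayed within 1.5 times under every alternative run. The others moved. Called lower on polysomes were 7 members, against 12 with library size only, 15 without a filter, 2 with only the groups compared, 4 with a length trend removed and 2 to 17 when single libraries were left out. Of all genes, 7.14% were called lower as reported, 10.6% with library size only and 6.01% without a filter. With only the groups compared the share was 3.43%, and with the length trend removed 7.6%. Called higher on polysomes was 1 member, against 3 without a filter, 2 with the length trend removed and 1 to 3 when single libraries were left out. Of all genes, 11.2% were called higher as reported, 6.94% without a filter and 10.5% with the length trend removed. For translational efficiency, 1 member was called higher in place of 0 with DESeq2, without a filter and with either block, and 0 to 1 when libraries were left out. The share of all genes called higher was 0.0776% as reported, 5.03% of 4378 genes with DESeq2 and 1.05% without a filter. It was 0.31% with the replicate block and 1.94% with the lysate block. Called lower were 2 without a filter and 2 with the lysate block, and 0 to 5 when libraries were left out. Of all genes, 0.0222% were called lower as reported, 0.665% without a filter and 0.576% with the lysate block. In porthos cells 16 members, in place of 29, were called higher on polysomes over input with the length trend removed. The share of all genes called higher was 14.7% there, in place of 23.7%. In the same comparison 1 member was called lower in place of 0 without a filter, with the lysate block and with the length trend removed. The count was 0 to 1 when libraries were left out. Of all genes 24.1% were called lower as reported, 15.3% without a filter, 25.2% with the lysate block and 14.6% with the length trend removed. The cause was not tested.

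Medians moved with the libraries and settings used. Short subunits in input (0.07) were at 0.044 with the split by coding length, chosen after seeing the data. They were at 0.039 with the length trend removed, and 0.049 to 0.10 when libraries were left out. The 25 accessory subunits, which are not the same genes as the short ones, were at 0.039 in input. Long subunits on polysomes (-0.11) were at -0.23 to 0.0064 when libraries were left out. Short subunits there (-0.28) were at -0.42 to -0.14, a range that overlapped that of the long ones. The 7 core subunits, which are not the same genes as the long ones, were at 0.089 on polysomes. For translational efficiency, short subunits (-0.34) were at -0.14 with the length trend removed. When libraries were left out they were at -0.48 to -0.18, and long ones (-0.16) at -0.29 to -0.067. The planned split by protein length was not run. ND-B8 and the paralogs were not called in any comparison without a filter, and at their depth a change was not detectable.

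Of the values of single named members, 996 kept their direction and their side of the threshold, 28 came to pass the test, 21 no longer passed it and 23 changed sign. Signs turned only where no test was passed. Library size as the only scaling moved the median loading of all genes in GFP cells to 0.14, beside 0.01 as reported. With the length trend removed, ND-B17.2 in input was at -0.0093, ND-20, ND-23 and ND-30 on polysomes at 0.014, 0.0082 and 0.035, and the efficiency of ND-24 and ND-AGGG at 0.035 and 0.15. When libraries were left out, input values ran from -0.18 to 0.022 for ND-75, -0.065 to 0.021 for ND-B16.6, -0.063 to 0.070 for ND-B17.2 and -0.0066 to 0.16 for ND-B18. Polysome values ran from -0.12 to 0.085 for ND-20, -0.043 to 0.15 for ND-24 and -0.17 to 0.066 for ND-30, and efficiency from -0.18 to 0.0145 for ND-24 and -0.26 to 0.14 for ND-AGGG.

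Same-numbered replicates deviated together with correlations of -0.02 to 0.14, not all over 0.1, so a pairing by number was not established. With the replicate block, 9 members were lower and 1 higher on polysomes, beside 8.16% and 11.9% of all genes. ND-49 then had a translational efficiency of 0.62 with an adjusted p of 0.040 (edgeR).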
